A study of Mus musculus with 11 samples.

Results

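The genes described here encode the nuclear pore complex, the channel through the nuclear envelope. They were chosen as a list of 30 mouse symbols. Of these, 29 matched a row among the 46517 gene IDs of the count table, and Nup62 was not analysed here. They were divided by place in the pore into 9 outer ring genes, 5 inner ring genes, 3 genes of the FG proteins of the central channel, 3 nuclear basket genes, 5 genes of the cytoplasmic filaments and 4 genes of the membrane ring.

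RNA was sequenced in bulk from ventricular myocardium of 11 mice. They carried Tnnt2-Cre, a Cre recombinase driven by the cardiac troponin T promoter and so limited to cardiomyocytes, which for 1 WT sham mouse is a reading of its label. KO mice were in addition Lmnb2 flox/flox, which removes the gene of lamin B2 in those cells, while the Cre-only controls are called WT. At 10 to 12 weeks of age the mice had a suture tied around the aortic arch (transverse aortic constriction, TAC), which makes the left ventricle pump against a higher pressure, or a sham operation. The libraries were 3 KO TAC, 3 WT TAC, 3 KO sham and 2 WT sham. Of the WT sham mice, WT sham 2 had the genotype label WT without the gene's name and was taken as a Cre-only control. In bulk tissue, fewer cells of a type and less RNA per cell cannot be told apart.

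The pore is built from many copies of about as many proteins as the list has genes, arranged in rings stacked around a central channel. The membrane ring anchors it in the fused nuclear membranes, the inner and outer rings form the scaffold, and disordered proteins rich in phenylalanine-glycine (FG) repeats fill the channel and bind transport receptors. The basket and the cytoplasmic filaments extend from the nuclear and the cytoplasmic face, where they take part in RNA export and in docking of cargo. Scaffold proteins are known to be very long-lived in cells that do not divide, such as cardiomyocytes, so their messenger RNA level and their protein level need not move together.

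Libraries held 14770383 to 17333227 counts, of which 5793 to 12615 fell in pore genes. Lmnb2, the deleted gene, measured 9.72, 3.24 and 4.46 CPM (counts scaled to library size, with TMM factors between libraries) in the TAC libraries labelled KO, and 2.86, 2.16 and 6.70 CPM in those labelled WT. In sham hearts Lmnb2 stood at 0.649, 1.81 and 2.43 CPM with the label KO and at 4.44 and 3.86 CPM with the label WT. KO libraries were thus all below WT libraries after sham and not after TAC, and KO stands below for the label. The 7 cardiomyocyte markers were present in every library, with summed levels of 40489 to 52543 CPM in KO TAC, 46842 to 55896 CPM in WT TAC, 60939 to 77123 CPM in KO sham and 53301 to 76821 CPM in WT sham. Over both genotypes 2 of the 7 were called lower after TAC, while 2 of 5 fibroblast, 5 of 5 macrophage, 6 of 6 dividing-cell, 1 of 2 tested lymphocyte and 1 of 1 tested atrial markers were called higher. Of all tested genes 19.5% were called in this comparison, in either direction. None of 5 endothelial, 4 pericyte and smooth muscle and 2 tested adipocyte markers was called by edgeR, and 0 of these had an unadjusted p under 0.05, against 33.2% of all tested genes. Libraries also differed in the balance of long and short transcripts, taken as the median log2 CPM of genes with over 5000 exon bases minus that of genes with under 1500. This balance was 3.57, 2.30 and 2.19 in KO TAC 1 to 3, 1.68, 1.73 and 3.08 in WT TAC 1 to 3, 2.27, 3.22 and 2.63 in the 3 KO sham libraries, and 2.70 and 3.25 in the WT sham libraries. The running numbers in the titles came from separate ranges in TAC and sham mice, and among sham mice in KO and WT, so a batch that follows these numbers cannot be told apart from surgery, nor from genotype after sham.

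All 29 pore genes passed the filter on low counts, as did 14619 genes in all, and the lowest count of a pore gene in any library was 11. Their mean level had a median of 12.4 CPM, against 10.3 CPM over all tested genes. The spread between libraries of a group, as the SD of log2 CPM, had a median of 0.369 in pore genes and of 0.484 in all tested genes. It was smallest in Rae1 at 0.178 and largest in Pom121 at 0.747. With TMM scaling, the summed level of all 29 genes lay between 516 and 661 CPM in every library. Scaled to library totals alone, this sum was 388 to 571 CPM in sham and 599 to 744 CPM in TAC libraries, without overlap. All sham libraries had lower TMM factors than all TAC libraries. Mitochondrial genes held 32.8% to 49.4% of counts in sham and 13.2% to 35.9% in TAC libraries.

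Levels of different genes were set side by side per kilobase of exon, counting all annotated exons of a gene. Which transcripts were expressed was not measured, so a gene with annotated exons that are not used stands too low in this order. On this scale the outer ring held the highest and the lowest of the scaffold genes. Sec13, an outer ring protein that also coats vesicles leaving the endoplasmic reticulum, stood highest at 19.6 ± 9.44 CPM per kb (SD over all 11 libraries). Seh1l, an outer ring protein shared with a complex that regulates mTORC1, followed at 9.58 ± 1.59 CPM per kb. Rae1, an RNA export factor bound to Nup98, had 9.13 ± 1.40 CPM per kb. Tpr, the filament protein of the basket, had 7.66 ± 2.45 CPM per kb. The order of these 4 genes held in every library for its first step alone: Sec13 was above Seh1l in 11 of 11 libraries, Seh1l above Rae1 in 7, and Rae1 above Tpr in 8.

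At the other end, Nup210, a transmembrane protein known to be expressed in some tissues and not in others, had 0.154 ± 0.0784 CPM per kb, and Nup160, an outer ring scaffold protein, was above it in 11 of 11 libraries at 0.736 ± 0.196. Nup155, an inner ring protein, had 0.846 ± 0.184 CPM per kb. The highest of each remaining class were Nup93, the hub of the inner ring, at 3.67 ± 0.881 CPM per kb, Nup58, a channel protein in complex with Nup54 and Nup62, at 5.76 ± 1.69, and Aaas, the membrane ring protein aladin, at 3.37 ± 0.756. Aaas measured 12.3, 7.51 and 7.66 CPM in KO TAC 1 to 3 and 6.91, 9.47 and 12.4 CPM in WT TAC 1 to 3. In sham hearts Aaas stood at 8.80, 10.5 and 7.99 CPM in KO and at 12.3 and 7.79 CPM in WT. The outer ring genes, whose products mostly act as 1 complex, spanned levels from 19.6 to 0.736 CPM per kb.

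By class, levels per kb were summed within each library. The outer ring summed to 42.0 ± 9.52 CPM per kb in KO TAC, 52.6 ± 15.9 in WT TAC, 39.9 ± 5.54 in KO sham (SD, n = 3 each) and 39.2 ± 6.45 in WT sham (n = 2). Of these sums Sec13 alone made up 17.3 CPM per kb in KO TAC, 28.9 in WT TAC, 15.9 in KO sham and 14.7 in WT sham. The basket summed to 12.9 ± 4.50 CPM per kb in KO TAC, 13.5 ± 3.50 in WT TAC, 13.5 ± 2.68 in KO sham and 16.7 ± 3.19 in WT sham. In both classes TAC and sham libraries overlapped within each genotype. The cytoplasmic filaments summed to 24.3 ± 0.573 CPM per kb in KO TAC, 27.0 ± 2.69 in WT TAC, 23.6 ± 1.06 in KO sham and 25.0 ± 0.0203 in WT sham. The membrane ring summed to 6.95 ± 2.60 CPM per kb in KO TAC, 6.22 ± 1.74 in WT TAC, 7.87 ± 0.985 in KO sham and 8.20 ± 0.118 in WT sham. The 3 measured channel genes summed to 10.4 ± 1.10 CPM per kb in KO TAC, 10.4 ± 1.81 in WT TAC, 8.09 ± 0.417 in KO sham and 8.71 ± 0.458 in WT sham. In KO most of the channel difference lay in Nup58, at 6.64 CPM per kb after TAC and 4.36 after sham. Nup54 stood at 2.94 and 2.72, and Nup98 was lower after TAC, at 0.863 and 1.01. The inner ring summed to 8.66 ± 0.808 CPM per kb in KO TAC, 8.78 ± 1.25 in WT TAC, 6.90 ± 0.846 in KO sham and 7.82 ± 1.19 in WT sham. For these 2 classes every KO TAC library was above every KO sham library, while the WT groups overlapped. Among single genes, TAC and sham libraries did not overlap in 25.8% of all tested genes in KO and 40.3% in WT. Whether the class sums differed between the genotypes in this was not tested. For the membrane ring and the filaments the TAC and sham libraries overlapped within each genotype.

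**Figure D1:**
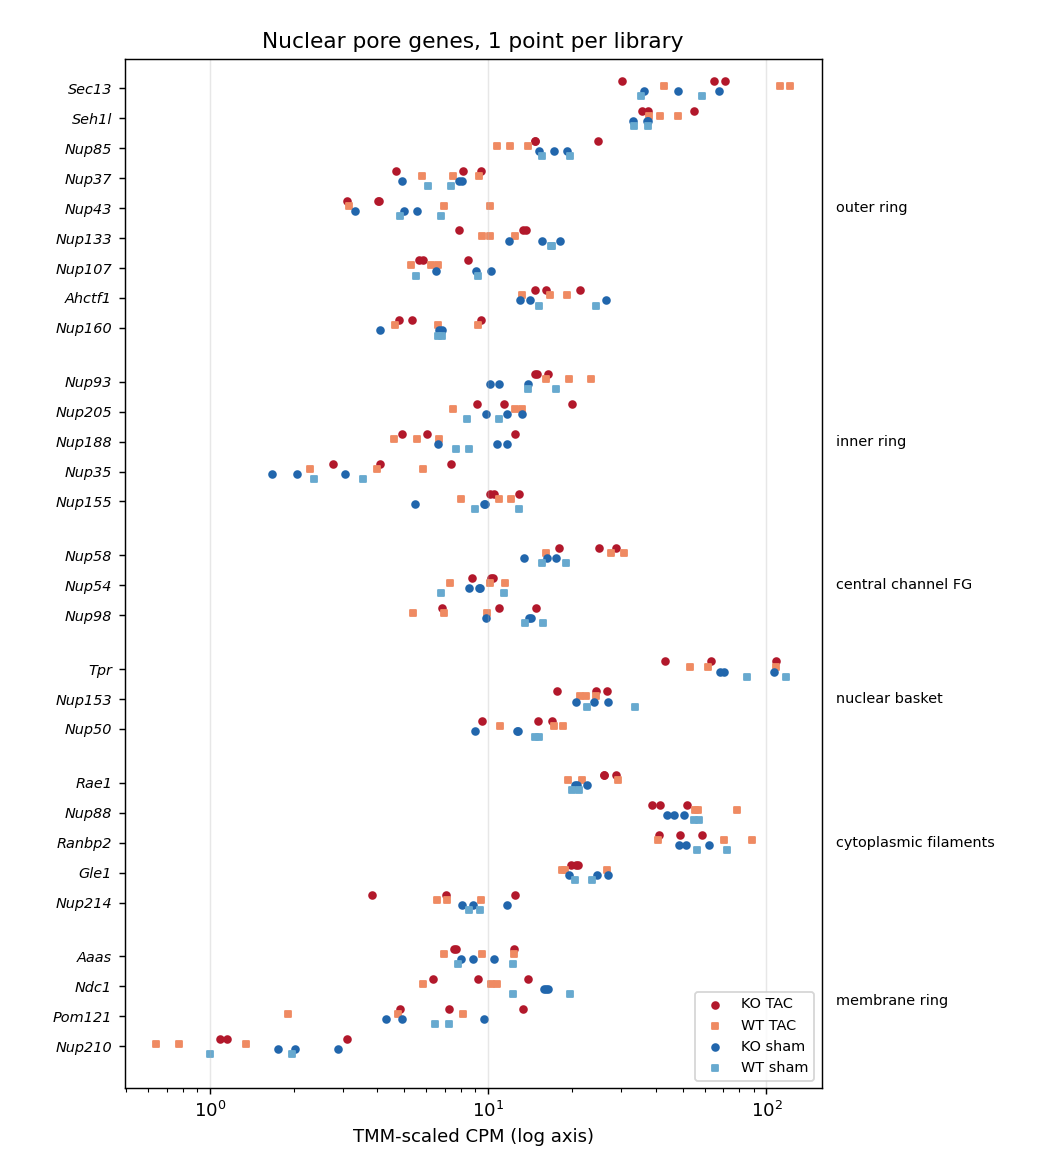
Level of each pore gene in TMM-scaled CPM on a log axis, with 1 point per library, colour and shape by group, and genes ordered within each class by level per kilobase. Most genes show overlapping groups, with Ndc1 lower in most TAC libraries and Nup210 at the low end of the scale.

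TAC was first compared with sham over both genotypes, in a fit with a term for surgery and a term for genotype, to ask whether pressure load changed the pore's messenger RNAs. Ndc1, the transmembrane protein that anchors scaffold proteins in the membrane, was the single pore gene called, and it was lower after TAC. edgeR's quasi-likelihood test with Benjamini-Hochberg adjustment over all tested genes (threshold 0.05) thus called 1 of 29 pore genes, against 19.5% of all tested genes. At an unadjusted p under 0.05 there were 5, namely Ndc1, Nup58, Nup133, Nup35 and Nup98, against 33.2% of all tested genes. DESeq2 called 2 pore genes, Ndc1 lower and Nup58 higher, against 25.1% of all tested genes, and limma-voom called Ndc1 alone, against 18.6%. The median change of the 29 was -0.02 on the log2 scale, against 0.05 over all tested genes. With library totals in place of TMM the median over all tested genes was 0.45 and that of the pore genes 0.38, and 6 pore genes were called higher and 0 lower, namely Nup35, Nup58, Nup93, Rae1, Seh1l and Sec13, against 27.1% of all tested genes called and 24.4% called higher.

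Ndc1 (ENSMUSG00000028614; GRCm38 chromosome 4, 107367784 to 107416346, plus strand) measured 13.9, 9.19 and 6.35 CPM in KO TAC 1 to 3 and 10.2, 5.84 and 10.7 CPM in WT TAC 1 to 3. It measured 16.4, 15.9 and 16.2 CPM in the KO sham libraries, against 12.3 and 19.8 CPM in WT sham 1 and 2. The TAC libraries were below the sham libraries except for KO TAC 1, which was above WT sham 1, the lowest sham library. The log2 change was -0.77 ± 0.24 (SE), with a 95% interval from -1.29 to -0.25 and an adjusted p of 0.0384 (edgeR), or 0.586-fold with an interval from 0.409 to 0.840.

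The direction held within each genotype, where the change of Ndc1 was -0.72 ± 0.34 in KO (edgeR adjusted p = 0.273) and -0.84 ± 0.38 in WT (adjusted p = 0.18). The change was negative under all 23 other settings tried, from -1.05 to -0.35, and was called in 11 of them, with adjusted p from 0.00375 to 0.344. Leaving out 1 library ended the call in 8 of 11 cases, which were either WT sham library, any KO sham library, WT TAC 2, KO TAC 2 or KO TAC 3, with changes of -0.86 to -0.63. With the length balance as a covariate it was -0.66 and called, and with the share of ribosomal protein messages as a covariate it was -0.62 and not called. Nor was Ndc1 called with library totals in place of TMM, at -0.35, or with library totals without mitochondrial genes, at -0.68. The latter setting called Nup58, higher, as the single pore gene, against 15.1% of all genes tested. With the letter F or M of the sample title as a covariate the change of Ndc1 was -0.75 and not called. The markers of cardiomyocytes, fibroblasts, macrophages, lymphocytes, atrial and dividing cells given above moved with surgery in the same libraries, and their part in this difference was not tested.

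The other pore genes with an unadjusted p under 0.05 did not pass the adjusted threshold. Nup58 (listed as Nupl1 in GENCODE M21; chromosome 14, 60184612 to 60251431, minus strand) measured 18, 28.8 and 24.9 CPM in KO TAC 1 to 3, 27.6, 30.7 and 16.1 CPM in WT TAC 1 to 3, 17.5, 13.4 and 16.3 CPM in the 3 KO sham libraries, and 19.0 and 15.7 CPM in the WT sham libraries. Its 4 highest libraries were all TAC libraries, while KO TAC 1 and WT TAC 3 lay among the sham libraries. The change of Nup58 was 0.57 ± 0.20 with an interval from 0.13 to 1.01 (edgeR adjusted p = 0.0695), and the gene overlaps Atp8a2 on the same strand.

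Nup133, an outer ring protein that contacts the membrane, measured 13.3, 7.86 and 13.7 CPM in KO TAC 1 to 3, 10.1, 9.52 and 12.5 CPM in WT TAC 1 to 3, 18.2, 15.6 and 11.9 CPM in the 3 KO sham libraries, and 17 and 16.8 CPM in the WT sham libraries. KO sham 3 was the only sham library inside the TAC range. The change of Nup133 was -0.51 ± 0.20 (edgeR adjusted p = 0.0931).

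Nup35, an inner ring protein that binds membranes, was at a low level of 2.76, 4.10 and 7.38 CPM in KO TAC 1 to 3, 5.84, 3.97 and 2.28 CPM in WT TAC 1 to 3, 1.67, 2.05 and 3.06 CPM in the 3 KO sham libraries, and 2.38 and 3.54 CPM in the WT sham libraries. Its change was 0.79 ± 0.35 (edgeR adjusted p = 0.136), and the groups overlapped through WT TAC 3 and KO TAC 1. Nup35 also overlaps Dusp19 on the same strand, and reads shared with it were not measured.

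Nup98, whose transcript encodes both the mobile FG protein Nup98 and the outer ring protein Nup96, measured 14.8, 11 and 6.81 CPM in KO TAC 1 to 3, 6.91, 5.38 and 9.87 CPM in WT TAC 1 to 3, 9.82, 14.3 and 14 CPM in the 3 KO sham libraries, and 13.6 and 15.7 CPM in the WT sham libraries. Its change over both genotypes was -0.57 ± 0.26 (edgeR adjusted p = 0.14). WT TAC libraries were below both WT sham libraries, while KO TAC and KO sham libraries overlapped.

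Over both genotypes 23 of 29 pore genes had a 95% interval inside a 2-fold change in either direction, against 40.6% of all tested genes. Each interval is that of a single gene and is not widened for the number of genes. Narrowest was that of Rae1, at 26.0, 28.7 and 26.0 CPM in KO TAC, 19.3, 21.8 and 29.4 CPM in WT TAC, 20.8, 20.5 and 22.6 CPM in KO sham, and 21.3 and 20.1 CPM in WT sham. The interval of Rae1 ran from -0.07 to 0.61. Widest was that of Nup210, from -1.35 to 0.41, at 3.10, 1.16 and 1.09 CPM in KO TAC, 0.774, 0.643 and 1.35 CPM in WT TAC, 1.76, 2.90 and 2.01 CPM in KO sham, and 1.0 and 1.97 CPM in WT sham. No pore gene had TAC and sham libraries fully parted, against 13.6% of all tested genes.

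By class, the bound held for 5 of 5 filament genes, 3 of 3 basket genes, 8 of 9 outer ring genes, 4 of 5 inner ring genes, 2 of 4 membrane ring genes and 1 of 3 channel genes. The genes outside it were Sec13, Nup35, Ndc1, Nup210, Nup58 and Nup98. Over all 29 the intervals allowed changes between 0.393-fold and 2.91-fold.

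**Figure D2:**
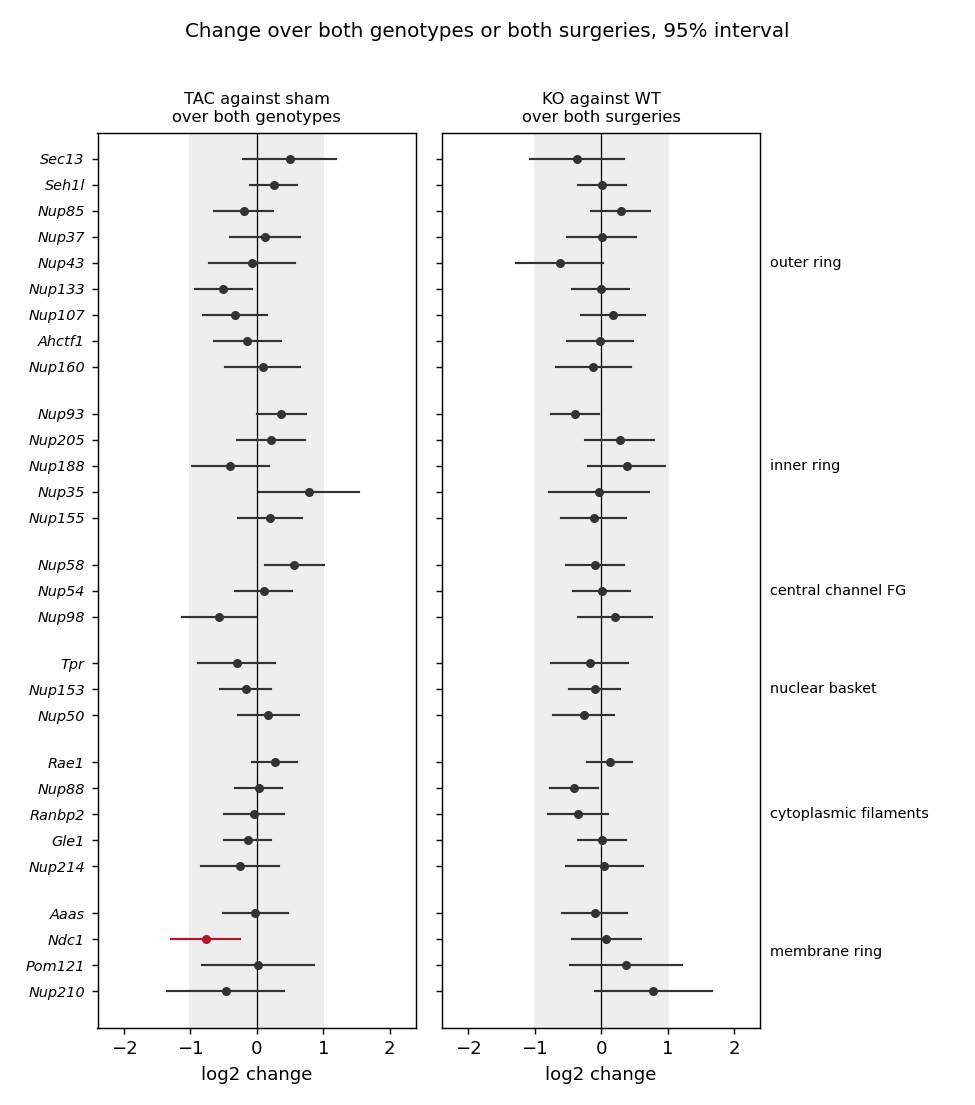
Log2 change of each pore gene (points) with its 95% interval (lines) for TAC against sham over both genotypes and KO against WT over both surgeries, with the 2-fold range in grey and a gene called by edgeR in red. Ndc1 is the single called gene, at -0.77, and 23 and 25 of 29 intervals lie inside the grey range.

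Within a genotype the same question rested on 5 or 6 libraries and the bounds were wider. In KO hearts edgeR called 0 of 29 pore genes after TAC, against 4.7% of all tested genes. DESeq2 and limma-voom also called 0, against 10.3% and 3.39% of all tested genes. At an unadjusted p under 0.05 there was 1, Nup35, against 19.3% of all tested genes. Nup35 differed by 1.06 ± 0.47 (edgeR adjusted p = 0.245), with an interval from 0.03 to 2.09. In WT hearts edgeR called 0 of 29, against 6.92% of all tested genes. DESeq2 and limma-voom also called 0, against 15% and 4.99% of all tested genes. At an unadjusted p under 0.05 there were 2, Nup98 and Ndc1, against 25.8% of all tested genes. Nup98 differed by -0.99 ± 0.37 (edgeR adjusted p = 0.119), with an interval from -1.79 to -0.18. Without WT TAC 3, 2 pore genes were called in WT, Nup98 lower and Sec13 higher, against 18.4% of all genes tested.

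Within each genotype a few pore genes had parted groups, and the difference between the genotypes in this was not tested. TAC and sham libraries did not overlap for 5 of 29 genes in KO, against 25.8% of all tested genes, and these were Nup58, Nup93, Nup155 and Rae1, higher after TAC, and Ndc1, lower. In WT they did not overlap for 6 genes, against 40.3% of all tested genes, and these were Seh1l, higher, and Nup85, Nup98, Nup133, Nup188 and Ndc1, lower. Ndc1 stood in both sets. Both shares, like the shares called, were below those of all tested genes.

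Bounds within a genotype covered 17 of 29 pore genes in KO, against 28.5% of all tested genes, and 13 of 29 in WT, against 17.3%. Over the 29 genes the intervals allowed 0.346-fold to 4.27-fold in KO and 0.238-fold to 4.02-fold in WT. The filaments were bounded for 4 of 5 genes in each genotype, while the membrane ring was bounded for 1 of 4 in each, Aaas. In KO the count was 11 without KO sham 3 and 9 without KO TAC 1, and in WT it was 4 and 6 without WT sham 1 and 2 and 8 without WT TAC 3. Median log2 changes by class in KO were 0.40 in the inner ring, 0.07 in the outer ring, -0.06 in the basket, 0.11 in the channel, -0.12 in the filaments and -0.15 in the membrane ring. In WT the class medians were 0.20 in the inner ring, 0.02 in the outer ring, -0.31 in the basket, 0.09 in the channel, 0.05 in the filaments and -0.57 in the membrane ring.

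**Figure D3:**
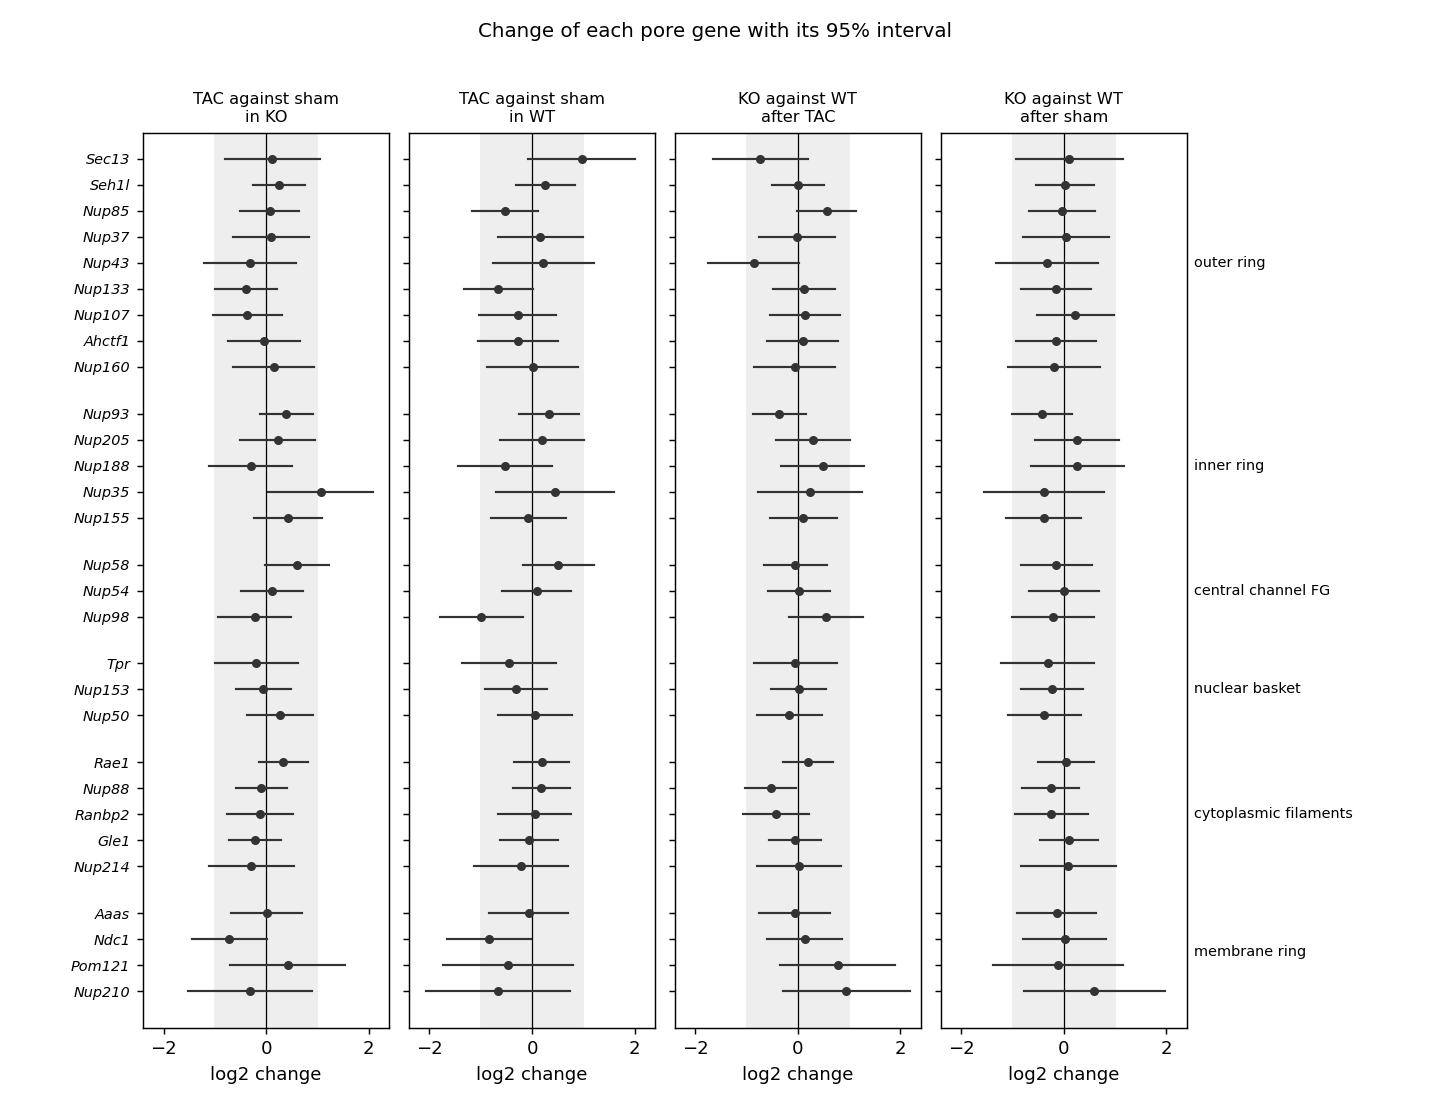
Log2 change of each pore gene (points) with its 95% interval (lines) in KO and in WT hearts after TAC, and between KO and WT after TAC and after sham, with the 2-fold range in grey. No gene was called by edgeR in these 4 comparisons, and 17, 13, 18 and 15 of 29 intervals lie inside the grey range.

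KO and WT hearts were compared to ask whether the Lmnb2 genotype went with a difference in pore messenger RNAs, lamin B2 being a protein of the lamina, on which pores are anchored. Lmnb2 itself differed between KO and WT by -0.26 ± 0.48 over both surgeries (edgeR adjusted p = 0.99), by 0.57 ± 0.55 after TAC (adjusted p = 0.792) and by -1.33 ± 0.65 after sham (adjusted p = 1). Over both surgeries edgeR called 0 of 29 pore genes and 0% of all tested genes. DESeq2 and limma-voom called 0 pore genes, against 0.00684% and 0% of all tested genes. At an unadjusted p under 0.05 there were 2, Nup88 and Nup93, against 3.28% of all tested genes. The bound of 2-fold held for 25 of 29, against 59.8% of all tested genes, and the median difference was -0.01, against 0.00 over all tested genes. Outside the bound were Nup43, Sec13, Nup210 and Pom121, and the 29 intervals allowed 0.413-fold to 3.18-fold.

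Nup88 (chromosome 11, 70943058 to 70969973, minus strand), which holds Nup214 on the cytoplasmic face, measured 41.6, 38.9 and 51.7 CPM in KO TAC 1 to 3 and 78.2, 55.5 and 56.8 CPM in WT TAC 1 to 3. It measured 43.9, 50.4 and 46.5 CPM in the 3 KO sham libraries, and 57.2 and 54.8 CPM in the WT sham libraries. All 6 KO libraries were below all 5 WT libraries, and Nup88 was the only pore gene of which this held, against 0.137% of all tested genes. The log2 difference was -0.41 ± 0.16, with an interval from -0.76 to -0.05, and did not pass adjustment (edgeR adjusted p = 0.99). Under the 23 other settings the difference was -0.46 to -0.27, with adjusted p from 0.72 to 1. Nup88 overlaps Rabep1 on the opposite strand, and reads of the 2 genes cannot be told apart here, as no source used states the strand setting of the counting.

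Nup93 measured 14.8, 16.4 and 14.9 CPM in KO TAC 1 to 3, 19.5, 16.2 and 23.5 CPM in WT TAC 1 to 3, 10.2, 13.9 and 10.9 CPM in the 3 KO sham libraries, and 13.9 and 17.6 CPM in the WT sham libraries. KO TAC 2 was above WT TAC 2, so the genotypes overlapped after TAC. The difference over both surgeries was -0.39 ± 0.17 (edgeR adjusted p = 0.99).

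After TAC alone, edgeR, DESeq2 and limma-voom called 0 of 29 pore genes between KO and WT. Of all tested genes they called 0%, 0.041% and 0%. The 1 gene with an unadjusted p under 0.05, against 6.36% of all tested genes, was Nup88, at -0.53 ± 0.23 (edgeR adjusted p = 0.747). Nup85, an outer ring protein, measured 14.7, 14.7 and 24.7 CPM in KO TAC 1 to 3 and 12.0, 13.8 and 10.8 CPM in WT TAC 1 to 3. Its level was 19.3, 17.3 and 15.2 CPM in the 3 KO sham libraries, and 19.6 and 15.6 CPM in the WT sham libraries. All KO TAC libraries were above all WT TAC libraries, with a difference of 0.56 ± 0.27 (edgeR adjusted p = 0.747) and KO TAC 3 far above the others. Nup85 and Nup88 were the 2 genes with parted groups after TAC, against 7.74% of all tested genes. The bound held for 18 of 29, against 34.5% of all tested genes, and for 11 without KO TAC 2.

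After sham surgery edgeR, DESeq2 and limma-voom again called 0 of 29, against 0%, 0.0205% and 0% of all tested genes. No pore gene had an unadjusted p under 0.05, against 1.27% of all tested genes. The smallest p values were those of Nup93, at -0.43 ± 0.27, and Nup155, at -0.39 ± 0.34 (edgeR adjusted p = 1 for both). Nup155 measured 12.9, 10.1 and 10.5 CPM in KO TAC 1 to 3, 11, 8.01 and 12.1 CPM in WT TAC 1 to 3, 5.47, 9.72 and 9.66 CPM in the 3 KO sham libraries, and 8.94 and 12.9 CPM in the WT sham libraries. Its sham groups overlapped, and KO sham 1 was its lowest library. KO and WT sham libraries were parted for Nup50, Nup88 and Nup93, all lower in KO, against 15.3% of all tested genes. For Nup93 this was almost a tie, with 13.8789 CPM in KO sham 2 and 13.8794 CPM in WT sham 1. The bound held for 15 of 29, against 35.7% of all tested genes, and for 5 and 4 without WT sham 1 and 2 and 9 without KO sham 2. The median difference was -0.14, against 0.02 over all tested genes.

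**Figure D4:**
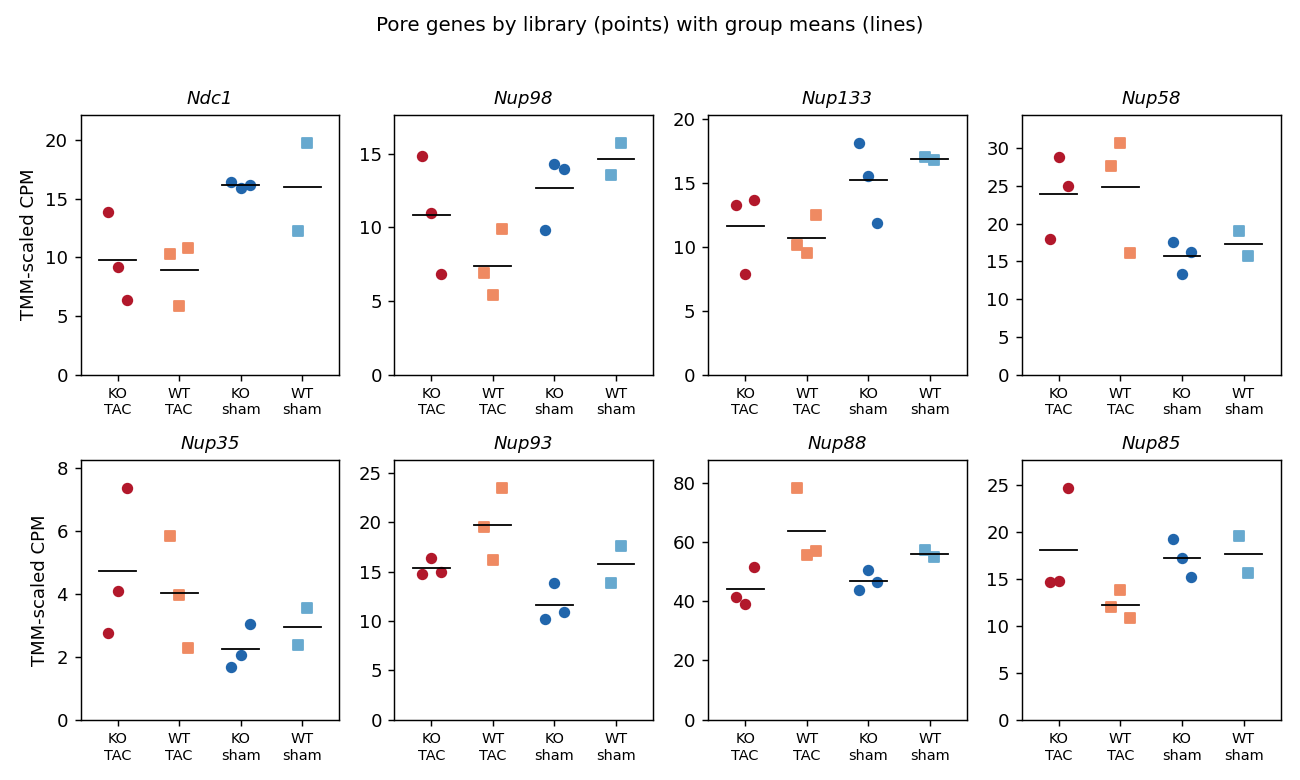
TMM-scaled CPM of 8 pore genes in each library (points) with the mean of each group (lines), with groups from KO TAC to WT sham. Ndc1 is lower in most TAC libraries, and for Nup88 all KO libraries lie below all WT libraries.

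Whether genotype altered the response to TAC was tested as an interaction. edgeR, DESeq2 and limma-voom called 0 of 29 pore genes, against 0%, 0.0137% and 0% of all tested genes. No pore gene had an unadjusted p under 0.05, against 2.97% of all tested genes. The smallest p values were those of Nup98, with an interaction of 0.76 ± 0.50, and Nup85, with 0.60 ± 0.40 (edgeR adjusted p = 0.992 for both). The response of Ndc1 differed by 0.12 ± 0.51, with an interval from -0.98 to 1.22, which is wider than the response itself. The bound of 2-fold held for 5 of 29, namely Nup54, Nup93, Rae1, Seh1l and Gle1, against 9.84% of all tested genes. Dropping KO sham 2 left 3 genes bounded, dropping KO sham 3, WT TAC 3 or WT sham 2 left 2, and dropping WT sham 1 left 0. For the remaining 24 pore genes these libraries did not bound the difference in response within 2-fold. The comparisons within a genotype and between genotypes share libraries, so their values for a gene are not independent.

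Tpr and Sec13, the highest genes of the basket and the outer ring, are set here beside the length balance of the libraries, of which 4 of the 5 lowest values were in TAC libraries. Tpr (10496 exon bases; chromosome 1, 150392838 to 150449935, plus strand) measured 108, 63.0 and 43.3 CPM in KO TAC 1 to 3, 61.8, 53.0 and 108 CPM in WT TAC 1 to 3, 70.2, 106 and 67.9 CPM in the 3 KO sham libraries, and 85.5 and 117 CPM in the WT sham libraries. Sec13 (3184 exon bases; chromosome 6, 113728062 to 113740743, minus strand) measured 30.2, 70.7 and 64.8 CPM in KO TAC 1 to 3, 111, 121 and 42.8 CPM in WT TAC 1 to 3, 67.4, 36.4 and 48.3 CPM in the 3 KO sham libraries, and 58.5 and 35.3 CPM in the WT sham libraries. The 4 libraries with a balance over 3, namely KO TAC 1, WT TAC 3, KO sham 2 and WT sham 2, held the 4 highest levels of Tpr and the 4 lowest of Sec13. Per kilobase, Tpr was 1.09 times Sec13 in KO TAC 1 and 0.132 times Sec13 in WT TAC 2. Other long pore genes did not all run with the balance. Nup88 (8144 exon bases) and Ranbp2 (11728) were highest in WT TAC 1, at 78.2 and 88.9 CPM, where the balance was lowest at 1.68. The remaining pore genes were not set against the balance in this way. Tpr overlaps Odr4 and Prg4 on the opposite strand.

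For TAC against sham over both genotypes the change was -0.30 ± 0.27 in Tpr (edgeR adjusted p = 0.458) and 0.49 ± 0.33 in Sec13 (adjusted p = 0.333). Without WT TAC 3 and KO TAC 1, which had the highest balance of the TAC libraries, edgeR called 8 of 29 pore genes, against 37.8% of all genes tested in those libraries. Of these Nup35, Nup58 and Sec13 were higher and Nup98, Nup133, Nup188, Tpr and Ndc1 lower. Without WT TAC 3 alone it called 2, Nup58 higher and Ndc1 lower, against 21% of all genes. Without KO TAC 1 alone it called 4, Nup58 higher and Nup98, Nup188 and Ndc1 lower, against 26.7% of all genes. The part of the length balance in each change was tested only as a covariate, under which Ndc1, lower, and Nup93, higher, were called, against 28.4% of all genes, and 27 of 29 genes were bounded within 2-fold. KO TAC 1 and WT TAC 3 also had the highest summed endothelial markers, at 881, 357 and 320 CPM in KO TAC 1 to 3, 193, 171 and 527 CPM in WT TAC 1 to 3, 319 to 473 CPM in KO sham and 339 to 342 CPM in WT sham, and the part of these markers was not tested.

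**Figure D5:**
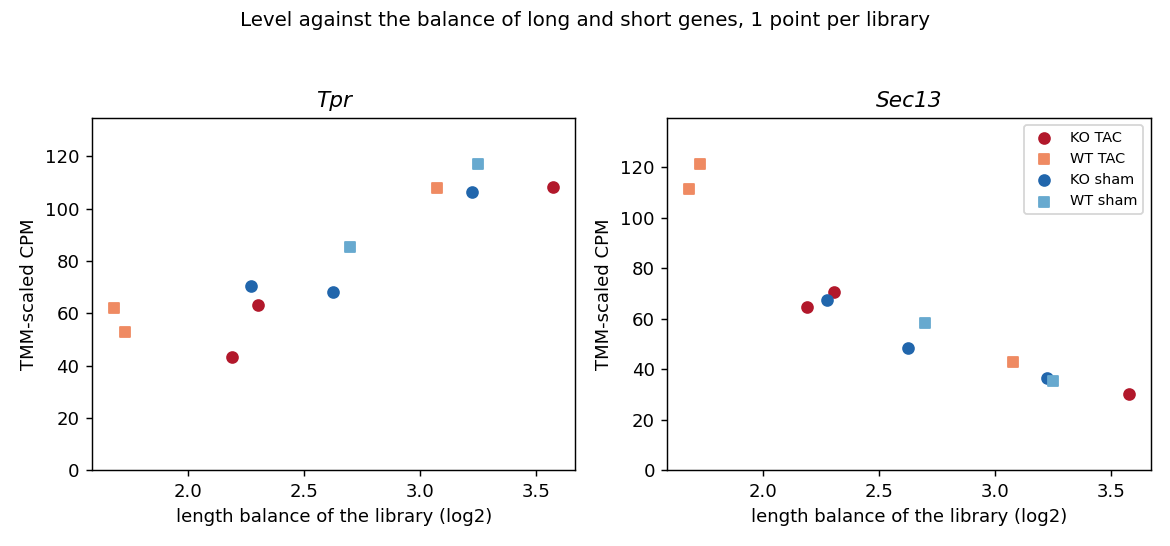
TMM-scaled CPM of Tpr and Sec13 in each library against the length balance of the library (log2), with colour and shape by group. Tpr runs up and Sec13 runs down with the balance, and 4 of the 5 libraries with the lowest balance are TAC libraries.

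Of 24 genes that act at the pore without belonging to its scaffold, 23 were tested. Over both genotypes 1 was called higher and 1 lower after TAC, against 19.5% of all tested genes called, both in the class of pore assembly and quality control in the envelope. Rtn4, a reticulon that curves membranes and takes part in pore assembly, rose by 2.00 ± 0.32 on the log2 scale (edgeR adjusted p = 0.00177). It measured 126, 304 and 220 CPM in KO TAC 1 to 3, 672, 538 and 291 CPM in WT TAC 1 to 3, 54.5, 64.1 and 107 CPM in the 3 KO sham libraries, and 72.8 and 88.5 CPM in the WT sham libraries, with all TAC libraries above all sham libraries. Tor1aip1, the inner membrane activator of torsins, changed by -0.69 ± 0.17 (adjusted p = 0.0134). It measured 61.2, 42.9 and 50.9 CPM in KO TAC 1 to 3, 38.8, 41.8 and 54.8 CPM in WT TAC 1 to 3, 68.5, 89.2 and 76.4 CPM in the 3 KO sham libraries, and 74.1 and 83.1 CPM in the WT sham libraries, again with parted groups, as in 13.6% of all tested genes. Tor1b and Sun1, of the same class, were not called but also had all TAC libraries below all sham libraries. Tor1b was at most 20.74 CPM after TAC and at least 20.94 CPM after sham. Sun1 was at most 31.3 CPM after TAC and at least 32.5 CPM after sham. The median change of the 23 was 0.02. Between KO and WT edgeR called 0 of them, and 0% of all tested genes, over both surgeries, after TAC or after sham. In these 3 comparisons 1, 1 and 0 of the 23 had an unadjusted p under 0.05, against 3.28%, 6.36% and 1.27% of all tested genes.

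Promoters of 25 of the 29 pore genes were found in a RefSeq table of 250 bases before to 50 after the gene start (GRCm38.p6), and Nup35, Nup43, Nup85 and Seh1l had no entry. Motifs were searched as letters on both strands, and GGGCGG is the core bound by Sp1. It was present in 68.0% of pore promoters, 62.8% of the promoters of tested genes and 35.9% of all 27025 promoters. CCGGAAG, the core bound by ETS factors, was present in 32.0% of pore promoters, 17.3% of those of tested genes and 9.12% of all. GCATGCGC, the core bound by Nrf1, was present in 12.0% of pore promoters, 5.25% of those of tested genes and 2.81% of all. CCAAT was present in 32.0% of pore promoters, 38.4% of those of tested genes and 37.9% of all, and TATAAA in 8.00% of pore promoters, 7.49% of those of tested genes and 14.2% of all. No motif contains another of the 5. The sequence CG occurred a median of 28 times per pore promoter, 20 times per promoter of tested genes and 7 times per promoter of all genes. These shares describe the letters in the window only.

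The 250 bases before the RefSeq start of the called gene Ndc1 (chr4:107367797-107368046, plus strand) are shown because it fell after TAC, and those of Nup58 (chr14:60251480-60251729, minus strand) because it was the next by p and lay on the other side. Capitals mark GGGCGG on either strand, the single one of the 5 motifs found in either stretch. The longer Nup58 window of the motif search also held GCATGCGC, which does not appear in the 250 bases shown. RefSeq places the start of Ndc1 downstream of the GENCODE start given above, so by the GENCODE coordinates the Ndc1 stretch lies inside the gene.
Ndc1: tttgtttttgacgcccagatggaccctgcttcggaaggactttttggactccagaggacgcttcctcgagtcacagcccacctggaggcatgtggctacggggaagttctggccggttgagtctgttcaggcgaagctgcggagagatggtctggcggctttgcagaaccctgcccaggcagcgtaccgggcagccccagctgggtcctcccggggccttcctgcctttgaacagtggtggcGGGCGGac
Nup58: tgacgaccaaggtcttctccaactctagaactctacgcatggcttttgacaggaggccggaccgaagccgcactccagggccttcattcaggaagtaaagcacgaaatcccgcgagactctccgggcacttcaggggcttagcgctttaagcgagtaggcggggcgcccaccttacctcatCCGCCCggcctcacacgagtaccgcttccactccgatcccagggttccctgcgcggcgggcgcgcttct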

How the data were processed

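RNA from ventricular myocardium of 11 mice was sequenced. The authors deposited raw counts, with 1 column per mouse and 1 row per Ensembl ID. STAR 2.5.1, featureCounts, DESeq2 and the build GRCm38 are named, without their roles, in the submitters' processing notes. The annotation, how strand was handled and how reads aligning to several places were counted are not given in the sources used here. Groups came from the genotype and treatment labels, where the plain label WT was taken as the Cre-only control, and nothing in the labels pairs the samples or names separate litters, so p-values measure the spread between these mice.

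Symbols, exon lengths and coordinates came from GENCODE M21 (46005 of 46517 IDs matched), and older symbols from RefSeq. Counts were filtered by filterByExpr, scaled by TMM and fitted in edgeR 4.0.16 (R 4.3.3) by glmQLFit and glmQLFTest, with 1 mean for each of 4 groups or with additive terms for surgery and genotype. Tests were 2-sided, with Benjamini-Hochberg adjustment over 14619 genes and a threshold of 0.05. The 95% intervals used the quasi-likelihood variance and its t quantile, and the code was tested on simulated data. CPM values are TMM-scaled. Groups were called parted where every library of one lay above every library of the other. DESeq2 1.42.0, limma-voom (limma 3.58.1), other scalings, filters, covariates and left-out libraries were the alternatives.

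The genes and lists were chosen with earlier results of these data known. Values in every library were given for called genes, the 2 smallest p values where none was called, the highest gene per kilobase of each class, and the widest and narrowest intervals. Nup133, the called pore-associated genes and the parted genes Tor1b and Sun1 were added after their values were seen, as were the motif search's sequences. Total counts of 14770383 to 17333227 set the precision, and 3 counts equal 0.173 to 0.203 CPM.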

Additional observations from a re-analysis of the deposited data

How the results depend on the processing

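Over 24 other settings, 11 of which left out 1 library, the counts of pore genes called, the counts bounded within 2-fold and the median changes moved as follows, and causes were not tested. With library totals in place of TMM the all-gene median of TAC against sham over both genotypes was 0.45, the pore median 0.38 and the pore genes called 6, all higher, against 27.1% of all genes called. Library totals also gave medians of 0.28 and 5 genes bounded for TAC in WT, of 0.48 with 4 bounded and 1 called (9.45% of all genes) for TAC in KO, of 0.15 for KO against WT after TAC, and of 0.26 with 1 bounded for the interaction. Library totals without mitochondrial genes gave 10 bounded and a median of 0.23 for TAC in KO, 9 bounded and 0.28 for KO against WT after TAC, 9 bounded after sham, 1 bounded and 0.39 for the interaction, and 0.11 for KO against WT over both surgeries. With no filter the interaction had 1 gene bounded, and 9 with a covariate for the ribosomal protein share.

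TAC against sham over both genotypes called 2 pore genes in DESeq2 (25.1% of all genes), 2 with the length balance as a covariate (28.4%; added after the data were seen), 0 with the ribosomal protein share (18%), 0 with the title letter (17.3%), and 8 without WT TAC 3 and KO TAC 1 (37.8%). Without those 2 libraries TAC called 4 in WT (30.5%) and 2 in KO (14.7%), with a median of -0.21 in KO and of -0.0032 for the interaction, and 23 were bounded for KO against WT after sham. That last count was 25 from the sham libraries alone and 24 with the length balance, which also gave a median of 0.090 for TAC in WT, 1 call for TAC in KO (17.3% of all genes), and 12 bounded with a median of -0.064 for the interaction.

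Leaving out 1 library gave 0 to 4 calls and 18 to 23 bounded genes for TAC over both genotypes, 0 to 2 calls and 4 to 15 bounded for TAC in WT, and 9 to 18 bounded with medians of -0.21 to 0.057 for TAC in KO. KO against WT had 4 to 18 bounded and medians of -0.14 to -0.030 after sham, and 11 to 18 bounded and medians of -0.11 to 0.19 after TAC. The interaction had 0 to 5 bounded and medians of -0.055 to 0.30. The Lmnb2 difference between KO and WT after TAC turned to -0.066 when KO TAC 1 was left out, and reached 1.24 without WT TAC 3. Bounds, not absence of change, are what 2 or 3 libraries a group allow. Reads shared with overlapping genes and the proteins themselves were not measured.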
